A study of Homo sapiens with 16 samples.

Results

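The genes described here encode the aminoacyl-tRNA synthetases of the cytosol and of the mitochondria. They were taken by gene name in both count tables, with earlier results of these data known. They are 36 of 58735 genes. Of these, 20 encode the cytosolic enzymes (AARS to YARS, names without a final 2) and 16 the mitochondrial ones (AARS2 to YARS2). Each synthetase joins 1 amino acid to its tRNA, the step that gives the ribosome its charged tRNAs. Cells keep separate nuclear genes for the cytosolic and the mitochondrial enzyme of most amino acids, while GARS and KARS each serve both compartments. Many cytosolic synthetase genes are known targets of ATF4, the transcription factor of the integrated stress response, which responds to uncharged tRNA, unfolded protein and other stress through phosphorylation of eIF2; the mitochondrial set is not usually listed with them.

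The libraries came from poly-A RNA of MDA-MB-231 and of SUM159PT, which are both established lines of human triple-negative breast cancer, with the genotype given as wild type. Cells of each line had received, by lipofection, either a guide RNA with no target (sgNTS) or a guide RNA to the Src-family kinase gene YES1 (sgYES1), and were collected 48 h later. That made 4 groups of 4 libraries, 16 in all. Replicates are called technical in the design text, so p-values measure the spread between these libraries and not between independent cultures. MDA-MB-231 was seeded in RPMI and SUM159PT in Ham's F12 medium, so cell line, medium and table cannot be told apart, and each line stands for itself only. Which nuclease or other effector worked with the guides is not stated in the labels.

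Gene counts per library summed to between 14.4 and 25.1 in units of 1e6. YES1 averaged 108 and 42.7 CPM (counts per 1e6 counts of the library, TMM-scaled) in the sgNTS and sgYES1 libraries of MDA-MB-231, and 94.2 and 39.7 CPM in those of SUM159PT. VIM, CD44 and EGFR were present in every library, PGR was at 0 and ESR1 stayed under 0.5 CPM, while ERBB2 averaged between 96.2 and 110 CPM per group. The 7 leukocyte markers together summed to at most 3.53 CPM in any library. In MDA-MB-231 that sum went from a range of 1.15 to 2.07 with sgNTS to 3.00 to 3.53 with sgYES1, and in SUM159PT from 0.143 to 0.608 to 0.986 to 1.72. CD3E was at 0 in all 4 groups. The 7 endothelial and fibroblast markers summed to between 15.9 and 27.8 CPM. Their part in the results below was not tested. Within groups, chi-square per degree of freedom between pairs of libraries ran from 2.33 to 6.81 except for the pairs with MDA-MB-231 sgNTS replicate 4 (29.1, 19.6 and 9.38), so no library was a copy and this one stood apart. SUM159PT sgNTS replicate 2 also stood apart for these genes: it was the lowest of its group for 12 of the 20 cytosolic genes. For the guide effect of each line, the cytosolic and mitochondrial counts are given with and without the library that stood apart. Other results, among them those of the stress genes, include both libraries unless stated.

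The promoter windows below are shown because 7 cytosolic genes that fell in SUM159PT carry the same short element. The letters searched were TGATGNAA, on both strands, the core of the composite element bound by ATF4 with a C/EBP partner, in the 250 bases before to 50 bases after each RefSeq start (GRCh38.p14). RefSeq windows matched 30 of the 36 genes (not DARS, LARS, VARS, YARS, AARS2 and VARS2). Each line gives 30 bases 5′ to 3′ on the strand of the gene, and capitals mark the element or its reverse complement.
AARS, chr16:70289675-70289704, minus strand: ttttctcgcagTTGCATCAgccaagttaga
CARS, chr11:3057407-3057436, minus strand: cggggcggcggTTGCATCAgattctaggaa
GARS, chr7:30594834-30594863, plus strand: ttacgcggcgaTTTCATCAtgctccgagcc
IARS, chr9:92293692-92293721, minus strand: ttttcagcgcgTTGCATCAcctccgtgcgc
MARS, chr12:57488053-57488082, plus strand: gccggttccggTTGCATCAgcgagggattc
NARS, chr18:57621804-57621833, minus strand: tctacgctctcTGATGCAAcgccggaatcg
TARS, chr5:33440956-33440985, plus strand: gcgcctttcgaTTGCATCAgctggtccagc
YARS2, chr12:32756076-32756105, minus strand: atccacactgcTGATGGAAaaattaagttt

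Of the matched genes, 7 of 10 cytosolic ones usually listed as ATF4 targets held the element (70.0%), against 0 of the 6 other cytosolic ones and 1 of 14 mitochondrial ones, YARS2 (7.14%). Of all 27305 genes with a window, 4.46% held it. The stricter form TGATGCAA was in 6 of the 10 and in 1.08% of all genes. In AARS the element lay 180 to 187 bases before the start, and in GARS 26 to 33 bases before it. In IARS it lay 6 to 13 bases before, in CARS and MARS it spanned the start, and in TARS and NARS it lay just after. A match describes letters in a window and shows no binding; genes without one may hold it elsewhere.

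In the controls, RNA for the cytosolic enzymes was more abundant than RNA for their mitochondrial counterparts. Levels are compared between genes as CPM per kb of annotated exon. That length merges all annotated exons of a gene and is not the length of the transcript in use. It was 7401 bases for IARS and 4165 for IARS2, for example. Ratios and ranks between genes, here and below, therefore depend in part on the annotation. Among 13 pairs with the same letter, the cytosolic mean was higher in 13 in each of the 4 groups, with a median ratio of 3.36 in MDA-MB-231 sgNTS and 3.12 in SUM159PT sgNTS. The closest pair in MDA-MB-231 sgNTS was that of isoleucine: IARS stood at 50.5 ± 0.911 and IARS2 at 50.01 ± 0.704 CPM per kb (SD, n = 4) in MDA-MB-231 sgNTS, where their libraries overlapped. In SUM159PT sgNTS the same genes stood at 64.8 ± 2.34 and 41.2 ± 1.503, without overlap. There the closest pair was HARS and HARS2, with a ratio of 1.12. IARS2 was far above the other mitochondrial genes in both lines; the next, YARS2, reached 11.9 ± 0.259 and 18.6 ± 0.374 CPM per kb. The cytosolic genes ran from CARS at 9.02 ± 0.512 to FARSA, the catalytic chain of the phenylalanine enzyme, at 74.3 ± 2.48 CPM per kb in MDA-MB-231 sgNTS, and from HARS at 14.04 ± 0.364 to FARSA at 116 ± 4.41 in SUM159PT sgNTS, where AARS at 115 ± 8.67 did not differ from FARSA beyond their spread. FARSB, the other chain of that enzyme, was at 21.2 ± 0.301 and 37.8 ± 0.623. SARS2 was lowest at 1.14 ± 0.166 and 0.842 ± 0.0265 CPM per kb, but 57.0% of its exonic bases are shared with other genes, 46.2% with a readthrough gene on the same strand, so its level is uncertain.

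**Figure D1:**
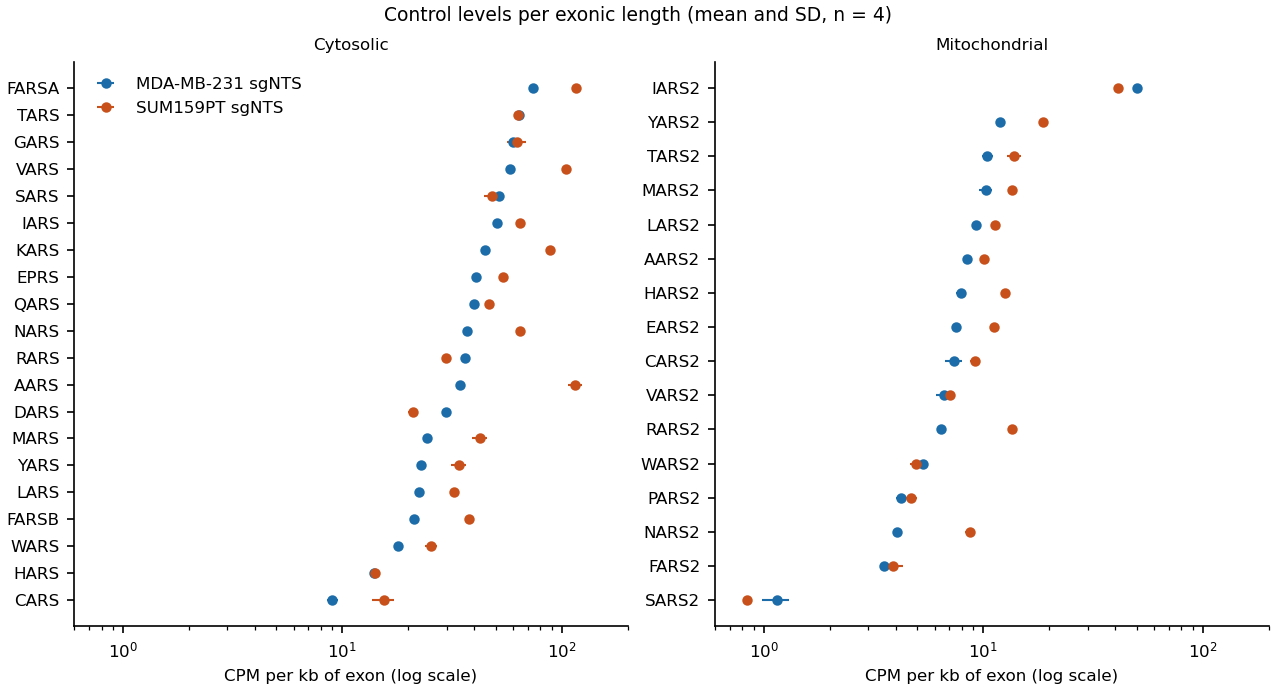
Level of each synthetase gene in the sgNTS libraries as CPM per kb of annotated exon on a log axis, mean and SD of 4 libraries, cytosolic genes on the left and mitochondrial genes on the right, each panel in order of the MDA-MB-231 level. IARS2 is the highest mitochondrial gene (50.01 in MDA-MB-231), and AARS shows the widest gap between lines (34.5 and 115).

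Most of the synthetase genes were higher in SUM159PT than in MDA-MB-231 under the control guide. With edgeR's quasi-likelihood test and Benjamini-Hochberg adjustment over all genes tested (called under 0.05, as throughout), 14 of 20 cytosolic genes were higher and 3 lower, and 10 of 16 mitochondrial genes were higher and 2 lower. The background was high: 82.7% of 15567 genes were called, 40.4% higher and 42.3% lower. The median log2 difference was 0.50 for the cytosolic and 0.29 for the mitochondrial genes, against -0.02 over all genes tested. AARS, which charges alanine, showed the largest difference, at 159, 157, 155 and 150 CPM in MDA-MB-231 sgNTS replicates 1 to 4 and 549, 462, 535 and 532 CPM in SUM159PT (log2 difference 1.73, SE 0.05, adjusted p = 1.1e-13). Those groups lay far apart. NARS2, the mitochondrial asparagine enzyme, and RARS2, the mitochondrial arginine enzyme, were 1.08 (SE 0.07) and 1.06 (SE 0.06) higher on the log2 scale, and KARS was 0.97 (SE 0.03) higher. DARS (-0.52), RARS (-0.29) and SARS (-0.12, adjusted p = 0.048) were the cytosolic genes lower in SUM159PT, and IARS2 (-0.29) and SARS2 (-0.45) the mitochondrial ones. The call for SARS was lost when any of 6 of the 8 control libraries was left out, and GARS (0.05, adjusted p = 0.435) was called higher without SUM159PT sgNTS replicate 2 (adjusted p = 0.0208). This comparison uses the same sgNTS libraries as the guide comparisons that follow.

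In MDA-MB-231 the cytosolic genes moved little and in both directions with sgYES1. Of the 20, 4 rose and 6 fell, which is 20% and 30%, against 20.8% higher and 22.1% lower (42.8% in either direction) among 15427 genes tested. Scaled on library totals alone, the split of all genes moved from 3205 higher and 3402 lower to 3956 and 2661, and that of the cytosolic genes to 8 higher. Without sgNTS replicate 4, 4 rose and 5 fell. The median cytosolic log2 fold change was 0.03, beside 0.01 over all genes, and no gene went beyond -0.20 or 0.22. Because the RNA came from whole cultures, fewer cells of a kind and less RNA per cell cannot be told apart.

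The genes that rose in MDA-MB-231 were WARS, AARS, FARSA and VARS. WARS, the tryptophan enzyme, which interferon also induces, was at 113, 114, 114 and 113 CPM with sgNTS and 137, 135, 131 and 128 CPM with sgYES1 (log2 fold change 0.22, SE 0.04, adjusted p = 0.000154). AARS was at 179, 174, 175 and 175 CPM with sgYES1, each above its control values (0.18, SE 0.03, adjusted p = 0.000606). In both genes every sgYES1 library exceeded every control. How often groups were apart among all genes tested was not counted, here or below. FARSA was at 186, 175, 177 and 186 against 207, 193, 202 and 203 CPM (0.15, SE 0.04). VARS, the valine enzyme, was at 367, 337, 355 and 354 against 398, 387, 392 and 379 CPM (0.14, SE 0.03). The groups of both genes were apart, by a few CPM for FARSA.

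Among the genes that fell in MDA-MB-231 was EPRS, a single chain that charges glutamate and proline, at 211, 225, 228 and 222 CPM with sgNTS and 202, 200, 186 and 186 with sgYES1 (-0.20, SE 0.04, adjusted p = 0.000995). DARS, the aspartate enzyme, went from 118, 118, 122 and 119 to 105, 107, 104 and 107 CPM (-0.18, SE 0.03). Both separated the guides in every library. FARSB went from 72.9, 71.4, 70.7 and 70.7 to 64.0, 66.9, 62.5 and 63.9 CPM (-0.16, SE 0.04), the opposite direction to FARSA, its partner in the same enzyme. GARS, which charges glycine in both compartments, went from 254, 247, 250 and 243 to 221, 225, 221 and 224 CPM (-0.16, SE 0.03). YARS (-0.12, adjusted p = 0.0128) and IARS (-0.09, adjusted p = 0.0346) were the other genes called lower, and IARS lost its call in 7 of the 14 alternatives tried. The remaining 10 cytosolic genes were not called and lay between -0.06 and 0.07.

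In SUM159PT most cytosolic synthetase genes fell with sgYES1. Of the 20, 13 fell and 3 rose (65% and 15%), against 19.7% lower and 19.6% higher (39.4% in either direction) of 14479 genes tested. Their median log2 fold change was -0.22, beside -0.01 over all genes. Summed over the 20 genes, the level was 5166 to 5579 CPM in the 4 sgNTS libraries and 4623 to 4679 CPM in the 4 sgYES1 libraries. Without sgNTS replicate 2, 14 genes were called lower and 3 higher, and the median was -0.24.

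Of the 13 genes usually listed as ATF4 targets, 12 were called lower and none higher (92.3%, median -0.33); DARS, which is not on that list, was the other cytosolic gene that fell. The exception was WARS (-0.12, adjusted p = 0.0538), which was called lower without sgNTS replicate 2 (adjusted p = 0.00494). CARS, the cysteine enzyme (hg38 chromosome 11, 3000922 to 3057613), had the largest change: it went from 167, 130, 167 and 157 CPM to 87.9, 88.6, 88.3 and 97.0 CPM, a fall of 0.77 on the log2 scale (log2 fold change -0.77, SE 0.06, adjusted p = 8.88e-09) or by 41.3%. The lowest control library, replicate 2, still lay above every sgYES1 library. GARS (chromosome 7, 30594681 to 30634033) went from 276, 227, 283 and 253 to 172, 163, 174 and 163 CPM (-0.62, SE 0.06, adjusted p = 2.54e-08). AARS (chromosome 16, 70252295 to 70289543) went from its control values of 462 to 549 CPM to 346, 353, 340 and 361 CPM (-0.56, SE 0.05, adjusted p = 7.02e-09). MARS, which charges both initiator and elongator methionine tRNA (chromosome 12, 57475445 to 57517569), went from 311, 265, 319 and 297 to 209, 214, 216 and 218 CPM (-0.47, SE 0.05, adjusted p = 1.92e-07). In all 4 genes the guides did not overlap, and replicate 2 was the lowest control. The share of all genes tested without overlap was not counted. AARS averaged 350 CPM with sgYES1 in SUM159PT, still above its 176 CPM with the same guide in MDA-MB-231.

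The other ATF4-listed genes fell by less. SARS, the serine enzyme, went from 197, 166, 199 and 178 to 137, 128, 136 and 135 CPM (-0.45, SE 0.05). YARS (-0.37), EPRS (-0.33), TARS, LARS and NARS (each -0.25), IARS (-0.20) and VARS (-0.19) followed, with SE from 0.04 to 0.05 and adjusted p of 0.000473 or less. VARS, one of the most abundant, went from 638, 632, 643 and 640 to 534, 588, 550 and 561 CPM. Each of these 8 genes kept its sgYES1 libraries under all of its controls, a separation not counted over all genes tested.

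Of the 7 cytosolic genes not usually listed as ATF4 targets, 3 rose (42.9%), 1 fell (14.3%) and 3 were not called in SUM159PT (median 0.03). Of all genes tested there, 19.6% were higher and 19.7% lower. The same counts over the 7 genes were obtained without sgNTS replicate 2. RARS, the arginine enzyme, went from 100, 107, 98.6 and 101 to 144, 129, 140 and 123 CPM (log2 fold change 0.40, SE 0.05, adjusted p = 3.35e-06). HARS, the histidine enzyme, went from 106, 112, 111 and 111 to 141, 132, 133 and 135 CPM (0.30, SE 0.04, adjusted p = 1.08e-05). FARSA went from 270, 284, 296 and 283 to 320, 369, 356 and 337 CPM (0.29, SE 0.04, adjusted p = 2.22e-05), while FARSB had a value of -0.07 (adjusted p = 0.242). DARS fell from 84.0, 85.6, 79.0 and 87.5 to 77.8, 69.1, 70.6 and 75.8 CPM (-0.19, SE 0.05, adjusted p = 0.00646). QARS (-0.08) and KARS (0.03) were not called.

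**Figure D2:**
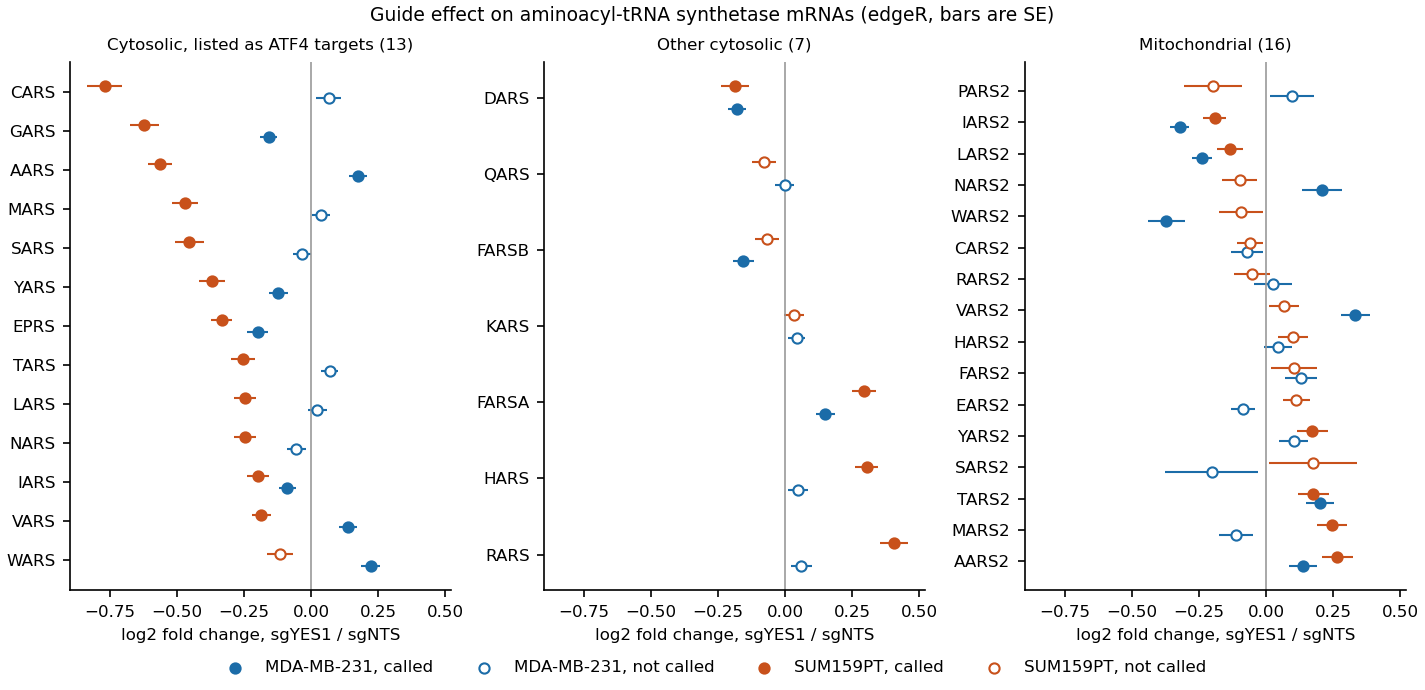
Log2 fold change of sgYES1 over sgNTS for each gene in each line, with bars for the SE of the edgeR fit; filled points were called at an adjusted p under 0.05. In SUM159PT all 13 ATF4-listed genes lie below 0 (12 called), while RARS, HARS and FARSA lie between 0.29 and 0.40 and the mitochondrial genes between -0.20 and 0.27.

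**Figure D3:**
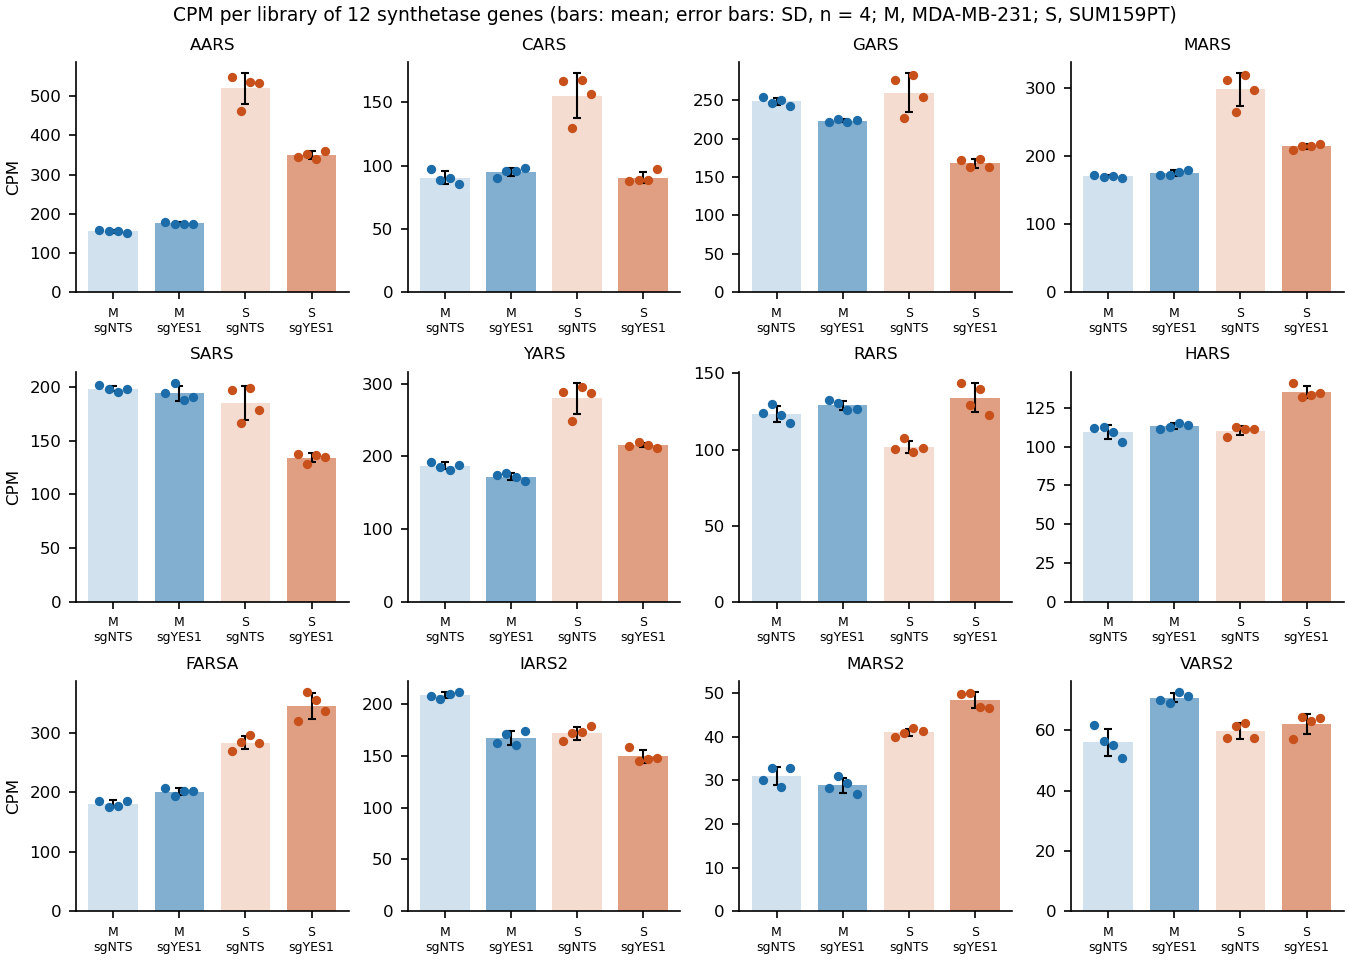
CPM in every library of 12 synthetase genes, with bars for the mean and error bars for the SD of 4 libraries. In SUM159PT the sgYES1 libraries of CARS (87.9 to 97.0) lie below all its controls (130 to 167), and those of RARS (123 to 144) lie above all of theirs (98.6 to 107).

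The genes were also divided by complex, fold and promoter. Of the 8 enzymes of the multi-synthetase complex (DARS, EPRS, IARS, KARS, LARS, MARS, QARS and RARS), 5 fell and 1 rose in SUM159PT (median -0.19), and of the 12 cytosolic genes outside it 8 fell and 2 rose (-0.25). By catalytic fold, 7 of 10 cytosolic class I genes fell and 1 rose (-0.22), and 6 of 10 class II genes fell and 2 rose (-0.22). Of all genes tested in SUM159PT, 19.7% were lower and 19.6% higher. In MDA-MB-231 none of the 8 complex enzymes rose and 3 fell (37.5%), beside 20.8% higher and 22.1% lower of all genes. Of the 16 cytosolic genes with a promoter window, the 7 with the TGATGNAA element printed above fell in SUM159PT (median -0.47). Of the 9 without it, 2 fell and 3 rose (median -0.07). DARS, LARS, VARS and YARS, which had no window to search, were each called lower there (-0.19, -0.25, -0.19 and -0.37). These are descriptions of overlapping lists.

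The mitochondrial genes moved in both directions in each line. Of 16, 4 rose and 2 fell in SUM159PT (25% and 12.5%), with a median of 0.08, against the 19.6% and 19.7% of all genes given above, and 3 rose and 1 fell there without sgNTS replicate 2. In MDA-MB-231, 4 rose and 3 fell (25% and 18.8%), with a median of 0.04, and 3 rose and 3 fell without sgNTS replicate 4. Only 2 were called higher there without sgNTS replicate 2, sgNTS replicate 3 or sgYES1 replicate 1, as with DESeq2, the replicate block or no filter. Over the alternatives that kept every library, the number called higher in MDA-MB-231 ran from 2 to 6. In SUM159PT 1 was called lower without sgNTS replicate 2, 3 or 4 or sgYES1 replicate 4. Summed CPM of the 16 genes was 792 to 826 with sgNTS and 800 to 818 with sgYES1 in SUM159PT. It was 685 to 703 and 661 to 664 in MDA-MB-231, where IARS2, the most abundant of them, went from a mean of 208 to 167 CPM.

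IARS2, the mitochondrial isoleucine enzyme, fell in both lines. It went from 207, 205, 210 and 211 to 162, 171, 160 and 174 CPM in MDA-MB-231 (-0.32, SE 0.04, adjusted p = 6.54e-06) and from 164, 172, 173 and 179 to 159, 145, 147 and 148 CPM in SUM159PT (-0.19, SE 0.04, adjusted p = 0.00138). No sgYES1 library reached a control in either line. LARS2, the leucine enzyme, went from 61.5, 63.8, 63.1 and 64.5 to 54.1, 53.0, 53.5 and 54.3 CPM in MDA-MB-231 (-0.24, SE 0.04, adjusted p = 0.000209). In SUM159PT it went from 75.8, 80.2, 76.0 and 77.8 to 71.3, 70.5, 71.6 and 67.4 CPM (-0.13, adjusted p = 0.0302); that call was lost without sgNTS replicate 2 and under 5 other alternatives. WARS2, the tryptophan enzyme, fell in MDA-MB-231, from 19.3, 20.2, 20.9 and 21.3 to 16.5, 16.7, 14.2 and 16.03 CPM (-0.37, SE 0.07, adjusted p = 0.000542), and was at -0.09 (adjusted p = 0.388) in SUM159PT. In MDA-MB-231 the tryptophan pair therefore moved apart, WARS higher and WARS2 lower.

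AARS2 and TARS2 rose in both lines, NARS2 and VARS2 in MDA-MB-231, and MARS2 and YARS2 in SUM159PT. VARS2, the valine enzyme, went from 61.8, 56.5, 55.1 and 50.9 to 69.9, 69.1, 72.6 and 71.5 CPM in MDA-MB-231 (0.33, SE 0.05, adjusted p = 0.000179), but 22.0% of its exonic bases are shared with GTF2H4 on the same strand. TARS2, the threonine enzyme, went from 45.0, 42.9, 39.2 and 43.0 to 51.6, 47.4, 47.3 and 50.3 CPM in MDA-MB-231 (0.20, SE 0.05) and from 57.0, 53.8, 53.0 and 62.0 to 61.2, 64.9, 60.1 and 67.8 CPM in SUM159PT (0.18, SE 0.06, adjusted p = 0.0196). The SUM159PT groups of TARS2 overlapped, and its call there was lost without sgNTS replicate 2, sgNTS replicate 3 or sgYES1 replicate 4 (adjusted p up to 0.0618). AARS2, the alanine enzyme, was at 37.0, 34.8, 37.3 and 35.9 against 39.5, 37.5, 43.0 and 39.8 CPM in MDA-MB-231 (0.14, adjusted p = 0.0441), a call lost in 10 of 14 alternatives. In SUM159PT it went from 40.9, 42.8, 44.8 and 44.1 to 47.8, 53.4, 52.7 and 52.8 CPM (0.27, SE 0.06, adjusted p = 0.000687), with no overlap.

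NARS2 rose in MDA-MB-231, from 13.02, 12.8, 12.2 and 13.2 to 14.7, 16.4, 14.3 and 14.04 CPM (0.21, SE 0.07, adjusted p = 0.0327, lost in 7 of 14 alternatives). MARS2, the methionine enzyme, rose in SUM159PT, from 40.0, 40.8, 41.9 and 41.3 to 49.8, 50.1, 46.9 and 46.6 CPM (0.25, SE 0.05, adjusted p = 0.00109). YARS2, the tyrosine enzyme and the mitochondrial gene with the promoter element, rose there too, from 41.1, 39.4, 39.6 and 40.5 to 41.7, 46.6, 47.7 and 44.3 CPM (0.17, SE 0.06, adjusted p = 0.0213, lost in 4 of 14 alternatives). NARS2 and YARS2 are the weaker calls of these, with groups less than 1 CPM apart. CARS2, FARS2, HARS2, PARS2, RARS2, SARS2 and EARS2 were called in neither line, with values between -0.20 and 0.17.

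Set side by side, 4 of the 13 same-letter pairs went in opposite directions in SUM159PT, each with the cytosolic gene lower and the mitochondrial gene higher: AARS and AARS2, MARS and MARS2, TARS and TARS2, and YARS and YARS2. IARS and LARS fell together with IARS2 and LARS2. The calls of TARS2, YARS2 and LARS2 in SUM159PT were each lost in some alternatives, as given above. Among all genes tested there, 19.7% were lower and 19.6% higher. CARS, NARS, SARS and VARS fell while their counterparts were not called, HARS and RARS rose while theirs were not, and neither gene of the tryptophan pair was called. In MDA-MB-231 the alanine and valine pairs rose together, the isoleucine pair fell together, and the tryptophan pair was the 1 that split. The calls of AARS2 and IARS in that line were lost in some alternatives, as given above. Among all genes tested in MDA-MB-231, 20.8% were higher and 22.1% lower. Among enzymes without a same-letter partner here, EPRS fell in both lines while EARS2 and PARS2 were called in neither, and FARSA rose in both while FARS2 was called in neither. The gap between CARS and CARS2 narrowed to 9.01 and 8.76 CPM per kb in SUM159PT sgYES1, where their libraries overlapped, from 15.5 and 9.17 with sgNTS.

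Whether the guide effect differed between the lines was tested by an interaction term in a fit of all 16 libraries. Here 11 of 20 cytosolic genes had a lower effect in SUM159PT and 2 a higher one (55% and 10%), against 11.9% and 12.7% (24.5% in either direction) of 16640 genes. All 11 were ATF4-listed genes, and the other 2 of those 13, EPRS (-0.15, adjusted p = 0.0542) and IARS (-0.12, adjusted p = 0.0957), missed the threshold. AARS led by p (log2 difference -0.75, 95% interval -0.88 to -0.62, adjusted p = 3.29e-09): it rose in MDA-MB-231 and fell in SUM159PT. VARS did likewise (-0.33, SE 0.05, adjusted p = 2.94e-05). CARS (-0.85, SE 0.09) and MARS (-0.52, SE 0.06) fell in SUM159PT alone by call, from values of 0.07 and 0.04 in MDA-MB-231. GARS fell in both and differed by -0.47 (SE 0.07, adjusted p = 1.75e-05). SARS, at 201, 198, 196 and 198 CPM with sgNTS and 194, 204, 188 and 191 CPM with sgYES1 in MDA-MB-231, differed by -0.43 (SE 0.07).

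WARS (-0.35), TARS (-0.33), LARS (-0.28), YARS (-0.26) and NARS (-0.20, lost without any of 3 SUM159PT libraries) completed the lower ones, and RARS (0.33, SE 0.07, adjusted p = 0.000697) and HARS (0.24, SE 0.06, adjusted p = 0.00228) were the higher ones. Of the 16 mitochondrial genes 4 were called (25%), beside the 24.5% of all genes: MARS2 (0.35, SE 0.08, adjusted p = 0.00231) and EARS2 (0.19, SE 0.07, adjusted p = 0.0365) had the higher effect in SUM159PT, and NARS2 (-0.32, SE 0.10, adjusted p = 0.0156) and VARS2 (-0.28, SE 0.08, adjusted p = 0.00989) the lower. The median difference was -0.23 for the cytosolic and 0.05 for the mitochondrial genes, beside -0.01 over all genes. MARS2 held its call in all 21 alternatives and the other 3 lost it in at least 2, VARS2 among them without MDA-MB-231 sgNTS replicate 4 or SUM159PT sgNTS replicate 3 (adjusted p up to 0.0512). Leaving out SUM159PT sgNTS replicate 2 gave the same 4 counts (11, 2, 2 and 2), while leaving out other single libraries gave 1 to 4 mitochondrial genes higher (4 without MDA-MB-231 sgYES1 replicate 4) and 0 to 2 lower (0 without SUM159PT sgNTS replicate 3).

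Averaged as log2 CPM within each library and set relative to the mean of the sgNTS libraries of the line, the 13 ATF4-listed genes stood at -0.36 to -0.39 in the SUM159PT sgYES1 libraries. The controls were at 0.06, -0.12, 0.06 and 0.01 in replicates 1 to 4, so replicate 2 lay toward the sgYES1 libraries without reaching them. In MDA-MB-231 the same average stayed between -0.01 and 0.03 in all 8 libraries. The 7 other cytosolic genes averaged 0.08 to 0.12 in SUM159PT sgYES1 against -0.02 to 0.03 in its controls. The mitochondrial average was 0.00 to 0.06 against -0.02 to 0.02. These averages carry no test, since the genes were grouped with results of these libraries known.

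**Figure D4:**
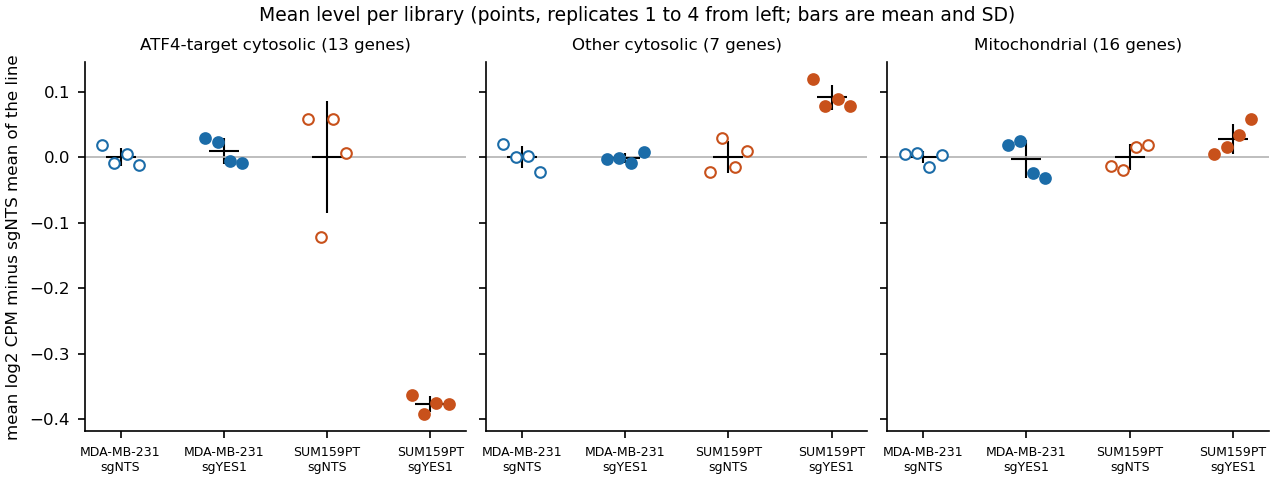
Mean log2 CPM of 3 groups of synthetase genes in each library, minus the sgNTS mean of the line; points are replicates 1 to 4 from left and crosses give mean and SD of 4 libraries. The ATF4-listed genes in SUM159PT sgYES1 lie at -0.36 to -0.39 and the lowest SUM159PT control, replicate 2, at -0.12, while the mitochondrial means all lie within -0.03 to 0.06.

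Genes of the integrated stress response were read beside the synthetases. ATF4 itself went from 243, 244, 240 and 235 to 283, 271, 283 and 297 CPM in MDA-MB-231 (0.24, SE 0.03, adjusted p = 7.99e-05) and from 543, 450, 550 and 542 to 330, 323, 330 and 329 CPM in SUM159PT (-0.66, SE 0.05, adjusted p = 1.99e-09). In MDA-MB-231, 3 of the 13 ATF4-listed synthetase genes were called in the direction of ATF4 (AARS, VARS and WARS). Another 4 were called in the opposite direction (EPRS, GARS, IARS and YARS). In SUM159PT all 13 had negative values, as ATF4 did, and 12 of them were called. A link to ATF4 was not tested. DDIT3, the stress transcription factor CHOP, went from 13.1, 12.2, 12.7 and 12.5 to 26.2, 22.3, 22.8 and 24.2 CPM in MDA-MB-231 (0.91, SE 0.07) and from 32.9, 19.8, 37.5 and 30.5 to 17.2, 13.99, 17.6 and 18.3 CPM in SUM159PT (-0.83, SE 0.13). ASNS, asparagine synthetase and an ATF4 target, rose from a mean of 1.78 to 2.82 CPM in MDA-MB-231 (0.65, SE 0.15) and fell from 8.12 to 2.07 CPM in SUM159PT (-1.99, SE 0.24), with 44.6% of its exonic bases shared with another gene. In SUM159PT replicate 2 was the lowest control for all 3 genes. Of the 22 regulators and targets listed, 15 rose and 3 fell in MDA-MB-231 (68.2% and 13.6%, median 0.47). In SUM159PT 1 rose and 17 fell (4.55% and 77.3%, median -0.67). Of all genes, 20.8% were higher and 22.1% lower in MDA-MB-231, and 19.6% higher and 19.7% lower in SUM159PT.

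In MDA-MB-231 the ATF4-listed synthetases had 3 higher and 4 lower (23.1% and 30.8%, beside 20.8% and 22.1% of all genes) at a median of 0.02. The stress list had 15 higher and 3 lower there, and the difference between the lists was not tested. The members of the stress list with the smallest p were, in SUM159PT, DDIT4, an inhibitor of mTORC1 (-1.99, beside 0.14 for MDA-MB-231), and the serine synthesis enzymes PHGDH (-1.13, beside -0.13, not called) and PSAT1 (-1.04, beside -0.36). In MDA-MB-231 they were SESN2, an inhibitor of mTORC1 (1.69, SE 0.08), and ATF3, a stress-induced transcription factor (1.54, SE 0.08). MARS shares 5.05% of its exonic bases with DDIT3 on the opposite strand, 27.2% of those of DDIT3; whether the counting used strand is not stated in the labels, so reads of this stretch cannot be assigned to either gene. In SUM159PT sgNTS replicate 2, the averaged stress list stood at -0.32 relative to its group mean, on the same side as the ATF4-listed synthetases of that library. Among 13 eIF2 kinases, exchange factors and phosphatase subunits, 3 rose and 4 fell in MDA-MB-231 (23.1% and 30.8%, beside 20.8% and 22.1% of all genes). In SUM159PT 3 rose and 1 fell (23.1% and 7.69%, beside 19.6% and 19.7%). EIF2AK4, the kinase GCN2 that senses uncharged tRNA, fell in both (-0.21, SE 0.04, adjusted p = 0.00105, and -0.22, SE 0.04, adjusted p = 0.000414). PPP1R15A, the stress-induced phosphatase subunit, rose in MDA-MB-231 (1.07, SE 0.04) and had a value of 0.07 in SUM159PT, and EIF2B3, a subunit of the exchange factor, fell in MDA-MB-231 (-0.34, SE 0.05) and had a value of 0.02.

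WARS was also set beside interferon genes, since interferon is known to induce it. Of 7 tested in MDA-MB-231, 5 rose and none fell (71.4% higher, median 0.31), beside 20.8% higher and 22.1% lower of all genes. Of 6 tested in SUM159PT, 5 rose and none fell (83.3% higher, median 0.27), beside 19.6% higher and 19.7% lower of all genes. IRF1, an interferon-induced transcription factor, rose by 0.65 (SE 0.04) and 0.71 (SE 0.08), GBP1, a guanylate-binding protein, by 0.43 and 0.30, and TAP1, a peptide transporter, by 0.19 and 0.34. WARS rose with them in MDA-MB-231 and had a negative value in SUM159PT, as given above.

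Among 9 scaffold and charging proteins that work with the synthetases, 2 rose and 1 fell in MDA-MB-231 (22.2% and 11.1%, beside 20.8% and 22.1% of all genes). In SUM159PT 1 rose and 2 fell (11.1% and 22.2%, beside 19.6% and 19.7%). SEPSECS, which converts phosphoseryl-tRNA for selenocysteine, rose in MDA-MB-231 (0.36, SE 0.10, adjusted p = 0.00977) and fell in SUM159PT (-0.48, SE 0.09, adjusted p = 0.000239), a difference of -0.85 (SE 0.14). AIMP2, a scaffold of the multi-synthetase complex, rose in both (0.11, adjusted p = 0.0462, and 0.26, adjusted p = 0.00019). DTD2, which removes mischarged amino acids, fell in MDA-MB-231 (-0.30, SE 0.08) and had a value of -0.21 (adjusted p = 0.0685) in SUM159PT.

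Mitochondria make glutaminyl-tRNA by amidation. In MDA-MB-231 the 4 genes of that amidotransferase and of formyl transfer to methionine had 2 higher (50%) and none lower. In SUM159PT they had 1 higher (25%) and none lower. Of all genes, 20.8% were higher and 22.1% lower in MDA-MB-231, and 19.6% higher and 19.7% lower in SUM159PT. GATC rose in both lines (0.29, SE 0.07, and 0.35, SE 0.08), though 47.6% of its exonic bases are shared. QRSL1, another subunit, rose in MDA-MB-231 (0.16, adjusted p = 0.0389) and had a value of -0.05 in SUM159PT, and GATB had values of 0.09 and 0.04. Of 11 mitochondrial translation factors and tRNA modifiers, none fell in either line, while 3 rose in MDA-MB-231 (27.3%, beside 20.8% of all genes) and 4 rose in SUM159PT (36.4%, beside 19.6%). TRMU, a tRNA thiouridylase, rose in SUM159PT (0.33, SE 0.06, adjusted p = 8.25e-05). MRRF, a ribosome recycling factor (0.29, SE 0.05), and MTO1, a tRNA modifier (0.24, SE 0.05), rose in MDA-MB-231. In the cytosol, EEF1A1, which brings charged tRNA to the ribosome, fell in both lines (-0.08, adjusted p = 0.0395, and -0.26, adjusted p = 1.64e-06), as did EEF2, the translocation factor (-0.11 and -0.18). EEF1D, an exchange factor of the first, rose in both (0.19 and 0.13), and EEF1G was listed at 0 in all libraries, with 99.9% of its exonic bases inside another gene. In MDA-MB-231 the calls of AIMP2, QRSL1 and EEF1A1 were each lost in 10 of 14 alternatives, and that of DDIT4 in 7 of 14.

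Read sharing limits some of these values. Of the 36 synthetase genes, 20 share exonic bases with another gene, 5 of them over 10%: SARS2, VARS2, HARS2 (15.8%, of which 11.7% with HARS head to head), MARS (13.3%) and WARS (10.6%). Annotated pseudogenes of the synthetases reached at most 3.60 CPM in any library, against means of 64.3 CPM or more for every cytosolic gene. That margin does not hold for every mitochondrial gene: SARS2 ran from 2.68 to 3.18 CPM in SUM159PT sgYES1. Typical spread was small, with a median CV of 1.99% to 3.78% across groups for the cytosolic and 4.07% to 5.36% for the less abundant mitochondrial genes.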

How the data were processed

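The authors deposited raw gene counts, 1 table per cell line, as whole numbers with no normalization; each also lists gene position and exonic length. The submitters' processing notes name HISAT2 2.0.5, featureCounts 1.5.0-p3 and the build hg38. Samples were grouped by the line and guide in the labels, and table columns were matched by name.

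For testing, edgeR 4.0.16 (R 4.3.3) was run on the raw counts with its quasi-likelihood test (TMM scaling, filterByExpr with a smallest count of 10 and total of 15, two-sided), with Benjamini-Hochberg adjustment over all genes tested and calls under 0.05. Each line was fitted on its 8 libraries, the controls on 8 and the interaction on 16. CPM values share 1 TMM scale over 16 libraries, log2 CPM used a prior count of 2, and CPM per kb divides by the deposited exonic length. An error is the SD over 4 libraries, or the fitted SE. Depth ran from 14.4 to 25.1 in units of 1e6 counts, so genes of a few CPM, such as SARS2 and ASNS, are the least precise. The code was tested on simulated data.

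The genes and lists were chosen with earlier results of these data known, the ATF4 list from textbook knowledge, so counts over a list carry no test. All 36 genes are accounted for. Values in every library are given for up to 4 called genes with the largest change per line, class and direction, and for up to 6 with the smallest p of the line difference. Up to 3 genes of each further list are named, plus ATF4, DDIT3, ASNS and WARS; SESN2, ATF3 and other genes with values in every library were added after their values were seen. Alternatives were RLE scaling, library totals, no filter, DESeq2 1.42.0, a replicate block, 1 fit of 16 libraries and leaving out each library. Proteins were not analysed here.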

Additional observations from a re-analysis of the deposited data

Results flagged for a closer look

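In groups of 4 libraries, 1 value lay far from the other 3 by Dixon's test in 9 of 152 groups examined, and chance alone gives about 1 in 20. The mean log2 CPM of the mitochondrial genes relative to the control mean was -0.0144 in MDA-MB-231 sgNTS replicate 3, against 0.00391 to 0.0066 in the others. AARS was at 179 CPM in MDA-MB-231 sgYES1 replicate 1, with the others at 174 to 175. NARS was at 246 CPM in SUM159PT sgNTS replicate 2, with the others at 270 to 271. EARS2 was at 60.0 CPM in SUM159PT sgNTS replicate 3, with the others at 65.1 to 65.9. The remaining 5 lay in SUM159PT sgYES1. CARS was at 97.0 CPM in replicate 4 against 87.9 to 88.6. In replicate 1, AARS2 was at 47.8 CPM against 52.7 to 53.4, and CARS2 at 86.8 against 93.2 to 93.4. In replicate 3, FARS2 was at 22.5 CPM against at most 19.4, and SARS2 at 2.68 against 3.15 to 3.18.

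The guide effect differed between the lines (interaction term of edgeR's quasi-likelihood test, adjusted p under 0.05) for 17 genes. On the log2 scale, with the MDA-MB-231 effect subtracted from the SUM159PT effect, the lower ones were CARS at -0.846, AARS at -0.75, MARS at -0.517, GARS at -0.473, SARS at -0.431, WARS at -0.349, TARS at -0.334, VARS at -0.333, NARS2 at -0.318, LARS at -0.28, VARS2 at -0.277, YARS at -0.259 and NARS at -0.201. The higher ones were MARS2 at 0.347, RARS at 0.332, HARS at 0.243 and EARS2 at 0.187.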

How the results depend on the processing

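The SUM159PT calls of the cytosolic genes were the steadiest: all 16 held in each of 14 alternatives, beside 3 of 6 mitochondrial calls. In MDA-MB-231, 8 of 10 cytosolic and 5 of 7 mitochondrial calls held in all 14. Of the line differences, 12 of 13 cytosolic and 1 of 4 mitochondrial calls held in all 21, and of the control contrast 16 of 17 and 12 of 12 in all 13. Library totals as the only scaling gave, in MDA-MB-231, 8 cytosolic genes higher, of them 5 ATF4-listed and 3 other, with 2 ATF4-listed lower, and in SUM159PT 1 mitochondrial gene lower. Without the filter on low counts, 2 mitochondrial genes were higher in MDA-MB-231, 1 was lower in SUM159PT, and the line difference had 1 higher and 1 lower. DESeq2 also gave 2 mitochondrial genes higher in MDA-MB-231. The causes were not tested. Leaving out 1 library at a time gave 2 to 3 mitochondrial genes higher in MDA-MB-231, 1 to 2 lower in SUM159PT, 1 to 4 higher and 0 to 2 lower in the line difference, and 0 to 1 ATF4-listed genes lower in the control contrast. With a replicate block, 2 mitochondrial genes were higher in MDA-MB-231, 1 had a higher line difference, and WARS was called lower in SUM159PT. Deviations of same-numbered libraries correlated between -0.0831 and 0.0277 in MDA-MB-231 and between 0.000677 and 0.0319 in SUM159PT. These values gave no clear pairing of the libraries by number. The block moved the count over all genes in MDA-MB-231 from 3205 higher and 3402 lower to 2868 and 3033. In SUM159PT it moved the count from 2842 higher and 2859 lower to 2904 and 2982. Not every library correlated best with its own number.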
